A study of Mus musculus with 15 samples.

Results

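The genes examined here make, move and clear lactate: Ldha, Ldhb and Ldhd, Slc16a1, Slc16a3 and Bsg, Mpc1 and Mpc2, and Glo1 and Hagh. These are 10 of the 55487 genes of each deposited table, and all 10 were found by symbol and passed the filter on low counts. They were chosen by name and function with results of these data known, since the fall of Ldhd in kidney disease had already been seen. The Ldhd contrast is therefore given as a description without a p-value. The other 9 share its pathways and were measured in the same contrast, so none of their values is independent support for it.

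Lactate is made from pyruvate, and turned back into it, by lactate dehydrogenase, a tetramer of A chains (Ldha) and B chains (Ldhb), and the B chain predominates in the heart, which burns lactate. Monocarboxylate transporters (Slc16a1, Slc16a3), brought to the cell surface by the chaperone basigin (Bsg), carry lactate across the cell membrane, and the mitochondrial pyruvate carrier, a pair of Mpc1 and Mpc2 chains, takes pyruvate into mitochondria. The mirror-image form, D-lactate, comes mainly from methylglyoxal, a reactive by-product of glycolysis, through the glutathione-dependent enzymes glyoxalase 1 (Glo1) and glyoxalase 2 (Hagh). It is oxidised in mitochondria by a separate enzyme encoded by Ldhd.

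RNA was taken from male mice at 225 days of age, from the free wall of the left ventricle at the midline, 7 animals with chronic kidney disease and 8 wild type. The kidney disease mice carry a mutation of Col4a5, a type IV collagen gene whose loss causes a progressive glomerular disease. The labels call the mutation a knockdown and the design text a knockout. Both groups were fed normal chow, and the wild-type mice were littermates housed with the mutants. Isoflurane is named as the anaesthetic in the sample titles and ketamine with xylazine in the protocol, and the labels give no strain.

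The kidney disease libraries held 54263014 to 65519279 counts and the wild-type ones 48748379 to 57962094, so counting error was small for all of these genes except Slc16a3, which had 112 to 280 counts per library. Col4a5 averaged 13.5 ± 2.97 CPM in kidney disease and 57.0 ± 4.93 CPM in wild type (SD, n = 7 and 8), with no overlap. CPM are counts scaled to a common library size with TMM factors, and a log2 change is kidney disease over wild type. All 8 cardiomyocyte markers were abundant, with summed levels of 66441 to 74588 CPM in kidney disease, against 66927 to 88813 CPM in wild type, and none was called. The libraries differ in their most abundant gene, which was Ttn in 3 kidney disease and 2 wild-type libraries and mt-Co1 in 4 kidney disease and 6 wild-type libraries. Genes of the mitochondrial genome held 11.6 ± 0.803% of counts in kidney disease and 12.9 ± 0.941% in wild type (SD, n = 7 and 8).

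Of the 10 genes, 1 was called lower and none higher in kidney disease (edgeR quasi-likelihood test, Benjamini-Hochberg adjusted p under 0.05 over 20718 genes). Among all genes tested, 0.473% were called lower and 0.811% higher, 1.28% in all. DESeq2 and limma-voom made the same count, 1 lower and none higher. The called gene was Ldhd, whose fall was known when the set was chosen. The median log2 change was 0.02 over the 10 genes and 0.0042 over all genes tested, and 5 of the 10 lay above 0.

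**Figure D1:**
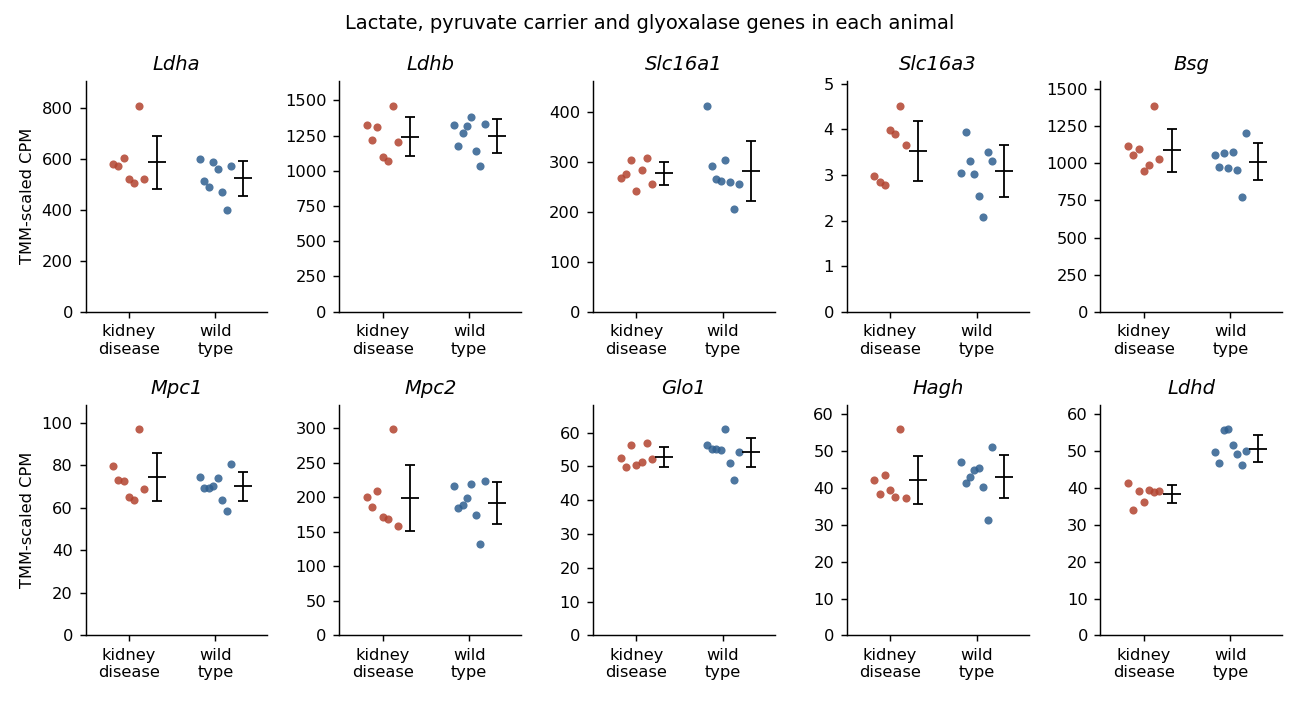
TMM-scaled CPM of each gene (vertical axis, from 0) in each animal, kidney disease in red on the left of each panel and wild type in blue on the right, with the group mean and SD in black. The groups overlap in every panel except that of Ldhd, where kidney disease spans 34.0 to 41.4 CPM and wild type 46.1 to 55.9 CPM.

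Ldhd (ENSMUSG00000031958, GRCm38 chromosome 8, 111623785 to 111630374, minus strand) encodes the mitochondrial enzyme that oxidises D-lactate to pyruvate. The stretch before its start is shown because it is the gene of the set that was called. The letters are the 250 bases before its start (RefSeq, build GRCm38.p6, chr8:111630337-111630586, minus strand), with the E-box motif CACGTG in capitals. The same stretch for D2hgdh, a relative described further on that was also called lower, lies at chr1:93824990-93825239 on the plus strand. These are starts of RefSeq transcripts. GENCODE places both genes' outermost start farther upstream, so the D2hgdh stretch lies wholly inside the GENCODE gene and the Ldhd stretch partly.
Ldhd: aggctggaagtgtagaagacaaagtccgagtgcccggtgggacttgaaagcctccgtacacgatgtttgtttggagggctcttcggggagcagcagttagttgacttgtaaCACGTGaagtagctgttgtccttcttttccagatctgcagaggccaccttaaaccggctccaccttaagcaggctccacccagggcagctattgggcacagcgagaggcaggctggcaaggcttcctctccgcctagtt
D2hgdh: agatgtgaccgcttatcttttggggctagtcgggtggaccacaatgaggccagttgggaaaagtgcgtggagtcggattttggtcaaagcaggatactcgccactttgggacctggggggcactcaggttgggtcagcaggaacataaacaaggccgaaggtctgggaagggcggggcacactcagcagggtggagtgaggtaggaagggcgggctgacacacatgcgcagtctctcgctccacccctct
The motif CACGTG, which reads alike on both strands, occurs 1 time in the Ldhd stretch and 0 times in that of D2hgdh. It occurs in 6.02% of 32851 such stretches of the RefSeq table.

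Ldhd had 34.0 CPM in the lowest kidney disease animal, a median of 39.2 and 41.4 in the highest, against 46.1, 49.95 and 55.9 CPM in wild type. All 7 kidney disease animals lay below the lowest wild-type animal, so the groups do not overlap. Among all genes tested, 0.179% were separated in this direction and 0.386% in the other. The means were 38.3 ± 2.47 CPM in kidney disease and 50.7 ± 3.63 CPM in wild type (SD, n = 7 and 8). The log2 change was -0.40 (SE 0.06, 95% interval -0.52 to -0.28), which puts the kidney disease level at 75.6% of wild type. It was -0.42 in the 10 libraries led by mt-Co1, and in the 5 led by Ttn it was -0.33 and was not called. With the mitochondrial-genome genes left out of the fit it was -0.40 and was called. That fit changes only the genes fitted and the library scaling, and the part of the lower mitochondrial share in this value was not tested. Leaving out any 1 animal gave -0.42 to -0.38, and Ldhd was called in each of these 15 fits. All of these fits reuse the values for which Ldhd was chosen, so being called again is no further support.

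The counts behind this value come from only part of the gene. Exons of Ldhd overlap those of Znrf1, a ubiquitin ligase gene on the opposite strand. Of the 5328 exon bases of Ldhd, 2246 (42.2%) are shared with it. Reads in shared bases appear to be left out of the tables for either gene. None of the 438 genes whose exons lie wholly under exons of the opposite strand had a single count in any library, nor did any of the 785 covered on their own strand, whereas 69.3% of genes with no shared base had at least 1. That is the pattern of counting without regard to strand and with ambiguous reads discarded. The Ldhd counts therefore stem from the 3082 unshared bases, and a read from either strand there counts as Ldhd. The annotation gives Ldhd 3 transcripts, of which 2 retain introns, so reads in those introns count as well. Znrf1 averaged 58.5 ± 2.05 CPM in kidney disease and 60.3 ± 3.07 CPM in wild type (SD, n = 7 and 8), and its log2 change of -0.04 (SE 0.05) was not called (adjusted p = 0.78). The log2 ratio of Ldhd to Znrf1 counts, which needs no scaling between libraries, was -0.75 to -0.46 in kidney disease, against -0.40 to -0.13 in wild type, with no overlap. This ratio reuses the same Ldhd counts, so it shows only that the separation does not come from the scaling and is no separate support.

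Other cell types differed between the groups beside it. Of 10 macrophage markers, 7 were called higher and none lower, and their summed level was 311 to 423 CPM in kidney disease, against 241 to 280 CPM in wild type. Of 8 fibroblast markers, 4 were called higher, with sums of 856 to 1011 CPM in kidney disease, against 755 to 914 CPM in wild type. Of 6 B cell markers, 5 were called higher, with sums of 16.9 to 27.4 CPM in kidney disease, against 7.10 to 15.001 CPM in wild type. No marker of atrial cells, neutrophils, red cells, endothelium, smooth muscle, adipocytes or T and NK cells was called. Atrial sums were 31.7 to 1690 CPM in kidney disease, against 34.4 to 1401 CPM in wild type, with a median log2 change of 0.54. Adipocyte sums were 0.308 to 25.5 CPM in kidney disease, against 3.25 to 48.6 CPM in wild type, with a median of -1.21. Both sums thus varied widely between animals of the same group. Erythroid sums were 311 to 826 CPM in kidney disease, against 561 to 1081 CPM in wild type, with a median log2 change of -0.68. None of the markers was at 0 in every library. The cardiomyocyte markers had a median log2 change of -0.05. Their summed level had a median of 67994 CPM in kidney disease, against 78368 CPM in wild type. In a tissue sample, fewer cells of a type and less RNA per cell cannot be told apart, and the part of the other cells in any value here was not tested.

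**Figure D2:**
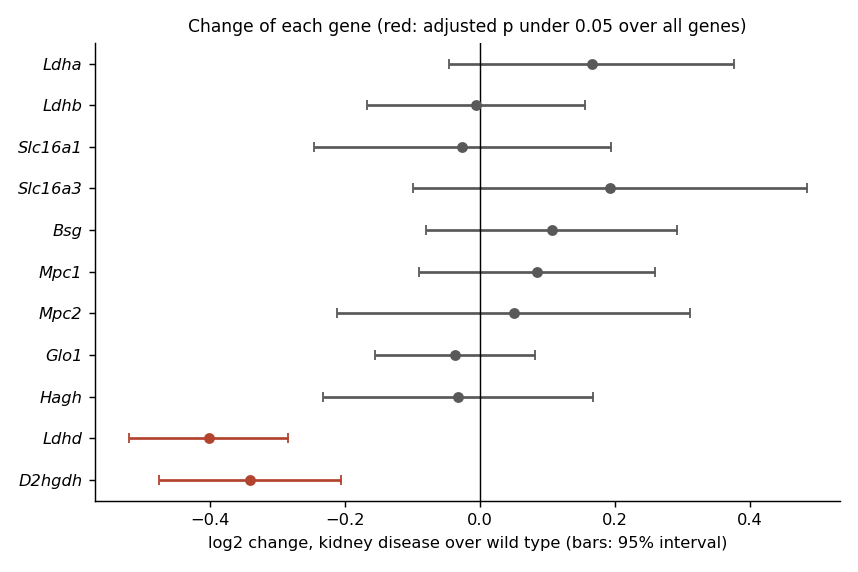
Log2 change of each gene, kidney disease over wild type (horizontal axis), with its 95% interval from the edgeR fit over all genes. Ldhd at -0.40 and its relative D2hgdh at -0.34, in red, were called, and the intervals of the other 9 genes include 0.

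Neither of the glyoxalases, which supply D-lactate, passed the test. Glo1, the first enzyme of the route, had 49.996 CPM in the lowest kidney disease animal, a median of 52.2 and 57.0 in the highest, against 46.0, 54.9 and 61.0 CPM in wild type. The kidney disease values lie wholly inside the wild-type range. Its log2 change was -0.04 (SE 0.06, 95% interval -0.16 to 0.08, adjusted p = 0.87), the narrowest interval among the 9 uncalled genes. Hagh, which releases D-lactate and restores glutathione, had 37.2, 39.5 and 55.8 CPM (lowest, median and highest) in kidney disease, against 31.3, 43.9 and 51.0 CPM in wild type. Kidney disease 6 alone lay above all wild-type animals, and the log2 change was -0.03 (SE 0.10, 95% interval -0.23 to 0.17, adjusted p = 0.94).

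The A and B chains of lactate dehydrogenase did not pass either. Ldhb, the heart-type chain, had 1072, 1217 and 1462 CPM (lowest, median and highest) in kidney disease, against 1032, 1292 and 1380 CPM in wild type. These ranges overlap almost wholly, and the log2 change was -0.01 (SE 0.08, 95% interval -0.17 to 0.16, adjusted p = 0.99). Ldha, the muscle-type chain, had 505, 573 and 808 CPM in kidney disease, against 398, 536 and 598 CPM in wild type. Only 2 kidney disease animals lay above the highest wild-type animal. Its log2 change was 0.17 (SE 0.10, 95% interval -0.05 to 0.38, adjusted p = 0.55), and 0.07 without kidney disease 6, the animal with the most Ldha.

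Within a library, however, the balance of the 2 chains differed between the groups. The log2 ratio of Ldha to Ldhb, in counts per kilobase of exon, was -2.29 to -1.93 with a median of -2.16 in kidney disease, and -2.45 to -2.23 with a median of -2.33 in wild type. The ranges overlap only between -2.29 and -2.23. The mean ratio was higher by 0.17 in kidney disease (two-sided exact permutation p = 0.0040 over 6435 splits, adjusted p = 0.016 over 4 ratios, n = 7 and 8). Of the Ldha, Ldhb and Ldhd total per length, Ldha made up 18.1 ± 1.24% in kidney disease and 16.4 ± 0.833% in wild type. Ldhb made up 81.1 ± 1.19% in kidney disease and 82.6 ± 0.783% in wild type (SD, n = 7 and 8 for both chains). These shares depend on the lengths used, here 3310 bases of exon for Ldha, whose principal transcript has 1766. Without any 1 animal the difference of the log2 ratio was 0.13 to 0.19, with unadjusted exact p of 0.0027 to 0.011. Among the 10 mt-Co1-led libraries it was 0.17 (exact p = 0.029), and among the 5 Ttn-led ones 0.20 (exact p = 0.20), where 3 against 2 animals cannot reach 0.05. Ldha-ps and Ldha-ps2, the pseudogenes named after Ldha, hold under 1% as many counts as Ldha in every library, at most 0.991% in Ldha-ps2. Adding their counts left the difference at 0.17. Pseudogenes under other names were not searched for.

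**Figure D3:**
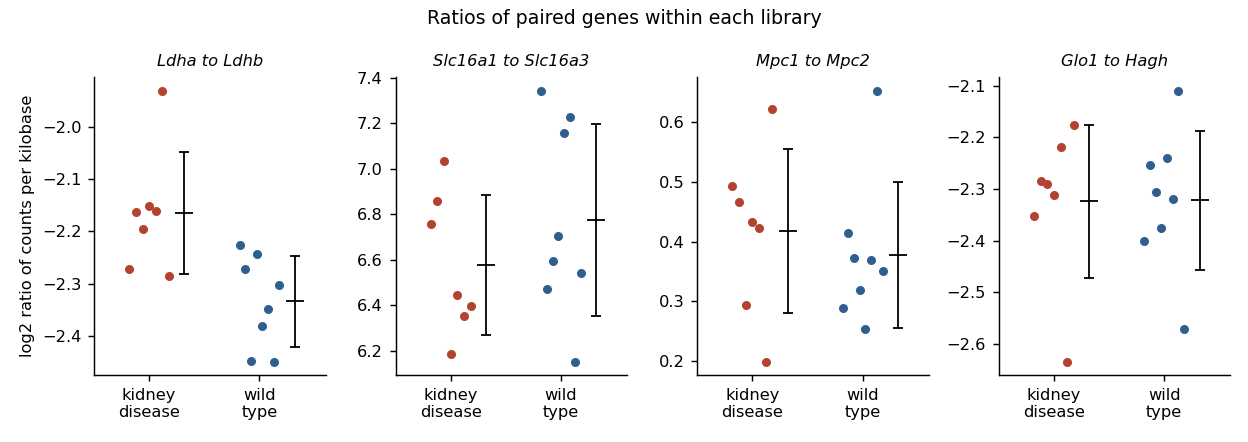
Log2 ratio of counts per kilobase for 4 pairs of genes in each animal (vertical axis, scaled per panel), kidney disease in red on the left and wild type in blue on the right, with mean and SD in black. Only the ratio of Ldha to Ldhb passed, with means of -2.17 in kidney disease and -2.33 in wild type.

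Of the lactate transporters, Slc16a1, which encodes MCT1, the carrier through which heart muscle takes up lactate, was 95.4 times as abundant per length in kidney disease, and 109 times in wild type, as Slc16a3, which encodes MCT4, an exporter of glycolytic cells. Slc16a1 had 242, 276 and 308 CPM (lowest, median and highest) in kidney disease, against 207, 263 and 412 CPM in wild type. Its log2 change was -0.03 (SE 0.11, 95% interval -0.25 to 0.19, adjusted p = 0.96), and 0.07 without wild type 1, which held the 412 CPM. Slc16a3 had 2.78, 3.66 and 4.52 CPM in kidney disease, against 2.07, 3.17 and 3.94 CPM in wild type. Its log2 change was 0.19 (SE 0.14, 95% interval -0.10 to 0.48, adjusted p = 0.65), the widest interval of the set. It was 0.04 among the mt-Co1-led libraries and 0.46 among the Ttn-led ones, and was called in neither. The log2 ratio of Slc16a1 to Slc16a3 averaged 6.58 ± 0.31 in kidney disease and 6.77 ± 0.42 in wild type (SD, n = 7 and 8), a difference of -0.20 (exact permutation p = 0.32, adjusted p = 0.64 over 4 ratios). Bsg, the chaperone of both, had 946, 1056 and 1388 CPM in kidney disease, against 774, 1017 and 1207 CPM in wild type. Kidney disease 6 was again the only animal above the wild-type range, and the log2 change was 0.11 (SE 0.09, 95% interval -0.08 to 0.29, adjusted p = 0.71).

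Neither chain of the mitochondrial pyruvate carrier passed the test. Mpc1 had 63.9, 72.8 and 97.0 CPM (lowest, median and highest) in kidney disease, against 58.8, 69.9 and 80.7 CPM in wild type, with a log2 change of 0.08 (SE 0.08, 95% interval -0.09 to 0.26, adjusted p = 0.77). A processed pseudogene, Mpc1-ps, holds 34.0% to 43.1% as many counts as Mpc1, so reads may be split between them, and Mpc1 is uncertain to that extent. The exons of Mpc1 also share 480 bases (23.1%) with a non-coding gene on the opposite strand. Adding the pseudogene counts gave a log2 change of 0.10. Mpc2 had 158, 186.4 and 298 CPM in kidney disease, against 132, 194.1 and 223 CPM in wild type, with a log2 change of 0.05 (SE 0.13, 95% interval -0.21 to 0.31, adjusted p = 0.93) that was -0.08 without kidney disease 6. The log2 ratio of Mpc1 to Mpc2 averaged 0.42 ± 0.14 in kidney disease and 0.38 ± 0.12 in wild type, with an exact permutation p of 0.55 (SD, n = 7 and 8; adjusted p = 0.73 over 4 ratios). That of Glo1 to Hagh averaged -2.32 ± 0.15 in kidney disease and -2.32 ± 0.14 in wild type, and its exact permutation p was 0.98, also after adjustment.

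Per kilobase of exon, Ldhb was the most abundant of the set, at 791 ± 87.5 CPM per kilobase in kidney disease and 794 ± 76.0 in wild type (SD, n = 7 and 8). Bsg followed at 600.2 ± 79.7 in kidney disease and 558 ± 69.5 in wild type, and its range over animals overlaps that of Ldhb. Ldha stood at 177 ± 31.5 in kidney disease and 158 ± 20.6 in wild type, and Slc16a1 at 62.5 ± 5.35 in kidney disease and 63.7 ± 13.5 in wild type. Below them came Mpc1 (35.7 in kidney disease and 33.7 in wild type), Mpc2 (27.1 in kidney disease and 26.1 in wild type) and Hagh (22.0 in kidney disease and 22.5 in wild type), with ranges that overlap from each to the next. Ldhd was at 7.19 ± 0.464 in kidney disease and 9.51 ± 0.682 in wild type, or 12.4 ± 0.803 in kidney disease and 16.4 ± 1.18 in wild type per kilobase of its unshared exons. Glo1 was at 4.37 in kidney disease and 4.48 in wild type, and Slc16a3 was lowest at 0.664 in kidney disease and 0.581 in wild type. The order depends on the length used. With the length of the principal transcript, Mpc2, whose exons span 7344 bases while that transcript has 1025, moved from the sixth place to the fourth, above Slc16a1 and Mpc1.

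**Figure D4:**
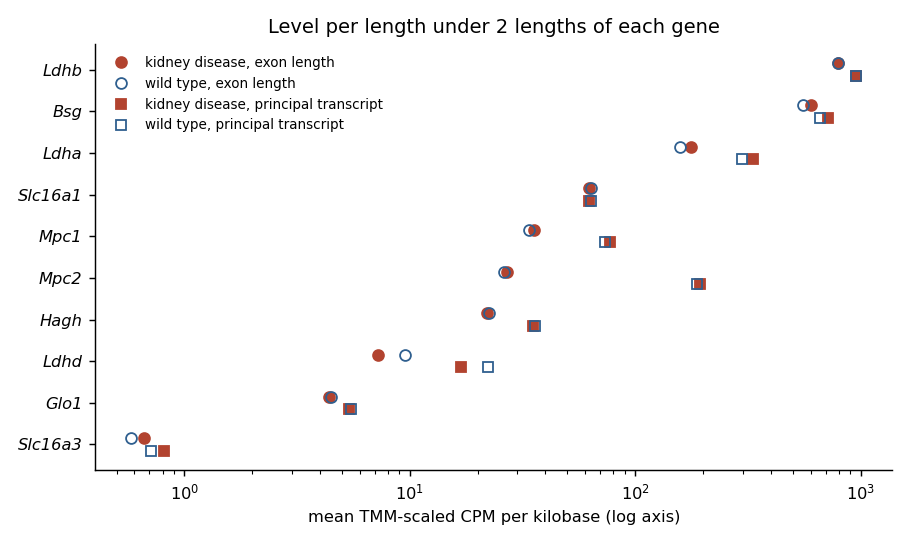
Mean TMM-scaled CPM per kilobase on a log axis, with the genes in order of their level per exon length in wild type. Circles use the deposited exon length and squares the principal transcript, kidney disease filled in red and wild type open in blue; the symbols of the 2 groups nearly coincide except for Ldhd, at 7.19 in kidney disease and 9.51 in wild type by exon length.

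Animals of one group differed from each other in a shared way that left Ldhd aside. After subtracting each group's mean, 7 genes (Ldha, Ldhb, Bsg, Mpc1, Mpc2, Glo1 and Hagh) varied together across the 15 animals, with Pearson r of 0.69 to 0.97 over their 21 pairs and a median of 0.91. Ldhd had r of -0.09 to 0.49 with the other 9, and Slc16a3 of -0.11 to 0.13. Slc16a1 stood between, with r of 0.50 to 0.70 with the 7. The grouping was made from these correlations and is a description. Pooled within groups, the SD of log2 CPM was 0.10 for both Ldhd and Glo1, the lowest of the set, against 0.28 for Mpc2 and Slc16a3. Of 8498 genes with a mean of at least 10 CPM, 21.04% had a smaller SD than Ldhd, and their median SD was 0.14.

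The shared variation went with the summed FPKM of a library, which is higher where short genes take more of the counts. The sum was 400517 to 495391 in kidney disease, against 392704 to 470413 in wild type (exact permutation p = 0.77, n = 7 and 8), with kidney disease 6 highest and wild type 7 lowest. Over 10 relations, adjusted together, r within groups was 0.89 for Ldha (rho 0.84, adjusted permutation p = 0.00045 for r and 0.0014 for rho), 0.88 for Mpc2 (rho 0.83, adjusted p = 0.00045 and 0.0014) and 0.86 for Hagh (rho 0.80, adjusted p = 0.00073 and 0.0020). For Mpc1, Bsg, Ldhb, Slc16a1 and Glo1 it was 0.84, 0.81, 0.74, 0.70 and 0.63 (rho 0.74, 0.77, 0.68, 0.67 and 0.67), with adjusted permutation p for r from 0.0014 to 0.014 and for rho from 0.0038 to 0.012. For Ldhd it was 0.13 (rho 0.03, adjusted permutation p = 0.64 for r and 0.92 for rho), and for Slc16a3 0.23 (rho 0.04, adjusted p = 0.47 and 0.92). Without kidney disease 6 and wild type 7, r was 0.73 for Ldha, 0.72 for Mpc2, 0.68 for Hagh, 0.63 for Slc16a1 and 0.59 for Mpc1, but only 0.52 for Bsg, 0.47 for Ldhb and 0.31 for Glo1, whose relation rests largely on these 2 animals. Among the 10 mt-Co1-led libraries it was 0.80 for Ldha, 0.75 for Mpc2, 0.77 for Hagh, 0.69 for Mpc1, 0.66 for Bsg, 0.54 for Slc16a1, 0.46 for Ldhb, 0.25 for Glo1 and -0.17 for Ldhd. For Slc16a3 it was 0.63 there, unlike the 0.23 over all 15. The 5 led by Ttn are too few for a correlation.

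**Figure D5:**
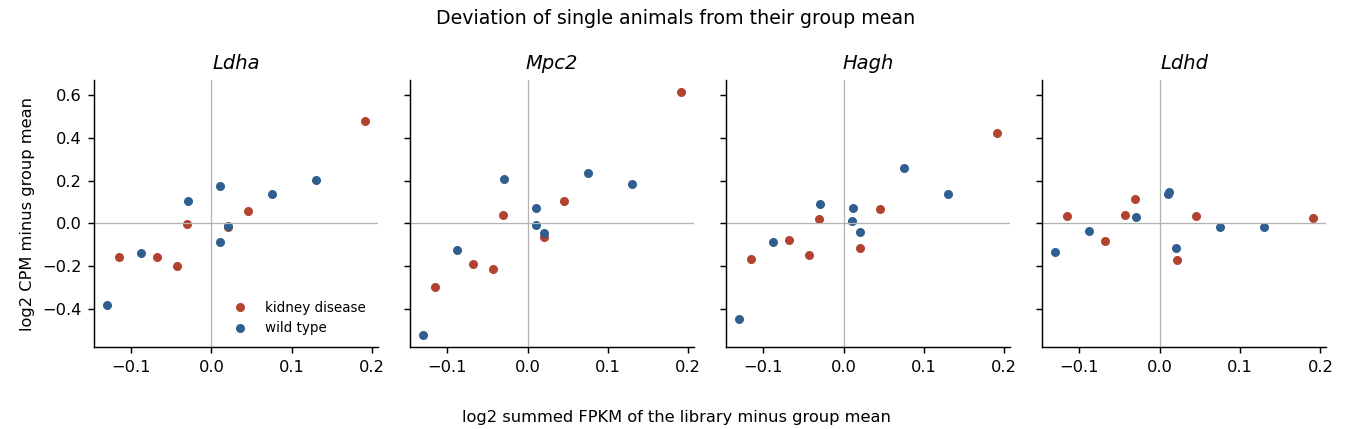
Log2 CPM of Ldha, Mpc2, Hagh and Ldhd in each animal (vertical axis) against the log2 summed FPKM of its library (horizontal axis), both minus the group mean; kidney disease in red, wild type in blue. The points rise together for Ldha (r = 0.89), Mpc2 (0.88) and Hagh (0.86) and not for Ldhd (0.13), and the point farthest right is kidney disease 6.

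The ratio of Ldha to Ldhb itself varied with the summed FPKM inside the groups, with r = 0.78 and rho = 0.69 (permutation p = 0.0023 and 0.0068, adjusted p = 0.0031 and 0.018 over the 4 ratios, n = 15), and r = 0.50 without kidney disease 6 and wild type 7. This was not particular to it: r was -0.77 for Mpc1 to Mpc2 (rho -0.65) and -0.81 for Glo1 to Hagh (rho -0.65), each with an adjusted permutation p of 0.0025 for r and 0.018 for rho. Without the same 2 animals these were -0.49 for Mpc1 to Mpc2 and -0.54 for Glo1 to Hagh. For Slc16a1 to Slc16a3 r was 0.25 (rho 0.25, adjusted permutation p = 0.38 for r and 0.37 for rho). Among the mt-Co1-led libraries r was 0.83 for Ldha to Ldhb, -0.64 for Mpc1 to Mpc2, -0.77 for Glo1 to Hagh and -0.15 for Slc16a1 to Slc16a3. The summed FPKM did not separate the groups, as given above, and its part in the difference of the ratio was not tested. The log2 summed FPKM was also used as a covariate in the edgeR fit over all genes, a choice made after seeing the data. Ldhd then changed by -0.40 and was called, but this reuses the values for which it was chosen and is no further support. In that fit Ldha changed by 0.13 (adjusted p = 0.24) and Mpc2 by -0.0046 (adjusted p = 0.98). None of the other 9 genes was called.

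Ldhd is one of a small family of flavin enzymes that oxidise D-2-hydroxy acids, and another member, D2hgdh, was also called lower. D2hgdh (ENSMUSG00000073609, GRCm38 chromosome 1, 93824909 to 93852348, plus strand) encodes the mitochondrial enzyme that removes D-2-hydroxyglutarate, and its exons share no base with another gene. It had 19.0, 23.8 and 26.3 CPM (lowest, median and highest) in kidney disease, against 27.2, 29.1 and 31.7 CPM in wild type. The groups do not overlap, which held in this direction for 0.179% of all genes tested. Its log2 change was -0.34 (SE 0.06, 95% interval -0.48 to -0.21, edgeR adjusted p = 0.014), or 78.9% of the wild-type level. D2hgdh was called without any 1 animal (log2 change -0.37 to -0.30). It was not called in the mt-Co1-led libraries alone (-0.38, edgeR adjusted p = 0.076) or in the Ttn-led ones alone (-0.25, adjusted p = 0.51). The list that holds D2hgdh was chosen with earlier results of these data known. Its calls are therefore no independent support for the fall of Ldhd.

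D2hgdh was the only gene called among 54 tested genes of 4 further lists, of 63 listed, with a median log2 change of -0.03. Over all genes 1.28% were called, 0.473% lower, so 1 call in 54 is near the background and says nothing of the lists. In its own list, of other hydroxy acid dehydrogenases and their electron acceptors, 1 of 11 tested genes was called lower and none higher, with a median of -0.03. Ldhal6b, Hao1 and Hao2 of that list had no count in any library. Of 12 genes of pyruvate supply and use none was called, with a median of -0.08. The smallest p there was that of Pcx, pyruvate carboxylase, which makes oxaloacetate from pyruvate. It had 42.5, 51.4 and 56.0 CPM in kidney disease, against 54.7, 58.6 and 70.6 CPM in wild type, and its log2 change was -0.28 (SE 0.07, adjusted p = 0.059). In all, 6 of 7 kidney disease animals lay below the wild-type range. Pcx was called without wild type 7 (-0.30, adjusted p = 0.038), with DESeq2 (-0.28, adjusted p = 0.011), with a filter of 1 CPM in at least 7 libraries and with the summed FPKM as a covariate.

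Of 17 genes of methylglyoxal and glutathione handling none was called, with a median of 0.08. Gclc, the catalytic subunit of the enzyme that limits glutathione synthesis, had the smallest p, with 14.8, 17.1 and 18.9 CPM in kidney disease, against 13.5, 14.8 and 15.3 CPM in wild type. Its log2 change was 0.21 (SE 0.06, adjusted p = 0.076), and 6 of 7 kidney disease animals lay above the wild-type range. Gclc was called without kidney disease 7 (0.24, adjusted p = 0.048), with DESeq2 (0.21, adjusted p = 0.035), with the filter of 1 CPM and with the leading gene or the summed FPKM as a covariate. Of 14 further monocarboxylate transporters and chaperones none was called, with a median of 0.0029. Slc16a10, an aromatic amino acid transporter of that family, had the smallest p, with a log2 change of -0.18 (SE 0.06, adjusted p = 0.20) that was called only without wild type 7 (-0.21, adjusted p = 0.043) among the fits without 1 animal.

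Across all 8498 genes with a mean of at least 10 CPM, those whose deviations from the group means were most like Ldhd's over the 15 animals were Dctn4 (r = 0.83, rho = 0.87), Clpb (0.81 and 0.80), Rcbtb2 (0.77 and 0.73), Adck1 (0.77 and 0.67) and Vps37c (0.77 and 0.65). They are picked as the highest of many, so no p is given. Dctn4 encodes a subunit of dynactin, Clpb a mitochondrial chaperone and Vps37c a component of the ESCRT-I complex. Between the groups, Clpb was called lower (-0.27, SE 0.06, edgeR adjusted p = 0.026). Adck1 (-0.22, SE 0.06, adjusted p = 0.089) and Vps37c (-0.04, SE 0.05, adjusted p = 0.81) were not called. Neither were Dctn4 (0.01, SE 0.04, adjusted p = 0.95) and Rcbtb2 (-0.0060, SE 0.05, adjusted p = 0.98).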

How the data were processed

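The authors deposited, for each library, raw counts, CPM and FPKM values and an exon length per gene. The submitters' processing notes name the build GRCm38, STAR 2.7.9a, featureCounts 2.0.3 from Subread, and bcl2fastq. Counting options are not given in the sources used. The deposited CPM and FPKM values were recomputed from the deposited counts and lengths within a relative tolerance of 1e-06 and were used only for this check. Each library's summed FPKM was computed from the counts and lengths. Libraries were made from ribosome-depleted total RNA (KAPA RiboErase), per the labels' protocols.

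Symbols and positions came from GENCODE M21, which held 55227 of the 55487 identifiers. Genes were kept with filterByExpr (minimum count 10), normalised by TMM and fitted in R 4.3.3 with edgeR 4.0.16, whose quasi-likelihood test was run with group as the only term, over all 15 libraries and 20718 genes, with Benjamini-Hochberg adjustment and a threshold of 0.05. The SE is the absolute log2 change over the root of F. Ratios were compared by exact permutation over all splits of the animals, and within-group relations by 100000 permutations within groups (scipy 1.17.1). Replicates are biological, per the design text, and no 2 libraries of a group agreed within sampling noise (lowest chi-square per degree of freedom 9.16). Replicate numbers were not taken as pairs of animals. The deviations of same-numbered libraries correlated at -0.26 to 0.49, above 0.1 in 3 of 7 pairs, which does not exclude a pairing. Pairing in another order was not tested.

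The members and lists were chosen with earlier results of these data known. Named genes are the members, Col4a5, called genes of the lists or else the gene with the smallest p in each, and the 5 genes most like Ldhd. Znrf1 was added for its overlap. On simulated counts for this comparison over 20718 genes, 64% of genes changed by -0.5 (log2) and 96% of those changed by -1 were called, 50 of each size, and 5.92% of all calls were false. Alternatives were other scalings and filters, DESeq2 1.42.0, limma-voom (limma 3.58.1), removal of mitochondrial genes, a replicate block, the leading gene as a covariate or as subsets, and leaving out each library. Added pseudogene counts and the summed FPKM as a covariate were chosen after seeing the data.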

Additional observations from a re-analysis of the deposited data

Results flagged for a closer look

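In 28 groups of values (10 genes and 4 ratios in each group), 8 values lay far from the others of their group, where chance gives about 1 in 20, or 1.4. That figure takes the values as independent. Genes that vary together, and ratios built from them, can all flag a single library, so the excess is overstated. Of these, 6 belong to kidney disease 6. This animal had the highest Ldha (808 CPM, next 605), Bsg (1388 CPM, next 1119), Mpc2 (298 CPM, next 209.5) and Hagh (55.8 CPM, next 43.6) of its group. It also had the highest log2 ratio of Ldha to Ldhb (-1.93, next -2.15) and the lowest of Glo1 to Hagh (-2.63, next -2.35). This is the library with the highest summed FPKM. Wild type 7, with the lowest summed FPKM, had the highest log2 ratio of Mpc1 to Mpc2 of its group (0.65, next 0.41). Wild type 1 had the highest Slc16a1 (412 CPM, next 303). No Ldhd value was picked out.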

How the results depend on the processing

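Ldhd was lower in kidney disease in every alternative fit (-0.42 to -0.33) and was called in all but the fit of the 5 libraries led by Ttn alone (-0.33, 0 of the 10 genes called lower). For Ldhd these fits reuse the values for which it was chosen and are no further support. With a replicate block over numbers 1 to 7, without wild type 8, Ldhd changed by -0.40, and the block changed no call of the 10 genes. The block gave a difference of 0.17 for the ratio of Ldha to Ldhb (exact sign-flip p = 0.031), and over all genes 66 higher and 50 lower calls, against 168 and 98 without it; 3 of 7 kidney disease libraries correlated best with their own number. No alternative called any of the other 9 genes, and directions near 0 turned: Ldhb to 0.0020 with no filter, 0.011 with the replicate block, 0.038 with the leading gene as a covariate, 0.035 within libraries led by mt-Co1 and 0.044 within those led by Ttn; Slc16a1 to 0.024 with the leading gene and 0.16 within libraries led by Ttn; Glo1 to 0.076 and Hagh to 0.088 within libraries led by Ttn; Hagh to 0.0072 with the replicate block and 0.022 with the leading gene; Mpc2 to -0.0046 with the summed FPKM. Within libraries led by Ttn the ratio of Mpc1 to Mpc2 turned to -0.019, and that of Ldha to Ldhb was 0.20 (exact p = 0.20). Fewer samples were fitted in these subsets; the other causes were not tested.

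Leaving out 1 animal gave log2 changes of 0.07 to 0.20 for Ldha, -0.050 to 0.026 for Ldhb, -0.080 to 0.073 for Slc16a1, 0.12 to 0.25 for Slc16a3, 0.04 to 0.15 for Bsg, 0.0096 to 0.12 for Mpc1, -0.076 to 0.10 for Mpc2, -0.07 to -0.01 for Glo1 and -0.11 to 0.012 for Hagh. The ratio differences were -0.29 to -0.12 for Slc16a1 to Slc16a3, 0.0068 to 0.08 for Mpc1 to Mpc2 and -0.038 to 0.050 for Glo1 to Hagh. Called list genes numbered 0 to 1 higher and 1 to 6 lower without 1 animal, the 6 being found when wild type 7 was left out. They numbered 1 higher and 3 lower with the filter of 1 CPM in 7 libraries and with DESeq2, 2 higher with the leading gene as a covariate, 2 higher and 4 lower with the summed FPKM as a covariate, and 0 lower within libraries led by mt-Co1 or by Ttn. Over all genes, DESeq2 made 378 higher and 262 lower calls. Counting error is largest for Slc16a3, which had 112 to 280 counts.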
